A study of Mus musculus with 8 samples.

Results

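Connexins are the subunits of gap junctions. Connexin subunits join into a hexameric channel in each of a pair of neighbouring membranes, and the docked channels pass ions and small molecules from cell to cell. In the heart the current that spreads the beat runs through them. *Gja1* encodes Cx43, the main connexin of working ventricular myocardium, and *Gja5* encodes Cx40, which is found in atrial myocardium, in the trabeculae and fast-conducting Purkinje network of the ventricle, and in arterial endothelium. Both are compared here with *Gjc1* (Cx45, of slow-conducting myocardium and vascular smooth muscle), *Gja4* (Cx37, of arterial endothelium), *Gja3* (Cx46, best known from the lens) and *Gjd3* (Cx30.2, of the mouse atrioventricular node). These 6 genes were chosen by symbol as the connexins of heart and vessels, and all 6 were found among the 53465 genes of the table.

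Poly(A) RNA was sequenced from the heart ventricles of mouse embryos at E15.5 in 2 groups of 4 libraries, with 1 ventricle behind each library. *Nrg1GOF* embryos carry an *Nrg1* transgene at Rosa26 together with a Cre driver, so that neuregulin-1, an ErbB ligand, is made in excess. The series title names the driver Nkx2.5-Cre, which acts in the cardiac lineage, and the genotype field spells it Nkx5.5-Cre. The controls are labelled WT and no allele is given for them, so an effect of Cre itself and one of neuregulin-1 cannot be told apart. *Nrg1* itself was at 59.7 to 63.7 CPM (counts per 1000000 of the scaled library) in *Nrg1GOF* and 3.07 to 4.47 CPM in WT, as the labels imply. Working cardiomyocyte genes were abundant in every library, with 12 markers summing to between 41290 and 55420 CPM. That sum says that heart muscle was present and does not measure admixed atrial tissue. The atrial genes *Sln* and *Myl7* ran from 0.16 to 14.2 CPM and from 88.9 to 377 CPM over the libraries. Library totals were 18754259 to 26786039 counts in 7 libraries and 8038641 in *Nrg1GOF* library 4. Among the WT libraries, 1 and 2 (r = 0.989 across genes) and 3 and 4 (r = 0.991) were closer to each other than any cross pairing (0.980 at most), and values against each pair alone are therefore given for the connexins and for other genes named here whose call changed with the pair. The share of counts from mitochondrial genes was 3.1% to 4.35% in *Nrg1GOF*, 4.30% and 4.48% in WT libraries 1 and 2 and 5.78% in both WT libraries 3 and 4. It thus moved with genotype and with the WT pair, and its part in the results was not tested.

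The regions just upstream of the RefSeq starts of *Gja5* and *Gja1* are shown because these are the genes compared most closely below. The *Gja5* window lies inside the annotated span of that gene (96904693 to 97077416), so it does not cover the region before the first annotated start. Each line is the 250 bases before the RefSeq start on the plus strand of GRCm38.p6, at chr3:97032152-97032401 for *Gja5* and at chr10:56377050-56377299 for *Gja1*, and capitals mark motif matches.
Gja5: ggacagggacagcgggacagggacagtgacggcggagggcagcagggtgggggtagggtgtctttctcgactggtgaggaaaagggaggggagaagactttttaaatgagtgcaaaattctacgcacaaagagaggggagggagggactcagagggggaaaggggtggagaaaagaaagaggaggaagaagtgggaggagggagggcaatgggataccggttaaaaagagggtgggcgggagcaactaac
Gja1: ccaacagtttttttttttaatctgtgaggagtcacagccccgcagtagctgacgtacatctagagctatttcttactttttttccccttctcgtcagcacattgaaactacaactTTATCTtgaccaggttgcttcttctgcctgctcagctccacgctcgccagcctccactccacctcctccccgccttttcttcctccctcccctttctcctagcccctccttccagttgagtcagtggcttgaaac
The motifs searched on both strands were GGTGTG (T-box), TNAAGTG (NKX2), NGATAA (GATA) and GGAAGT (ETS). They were present in 16.3%, 10.1%, 22.5% and 19.7% of 32851 windows of the same length. The *Gja5* window held none of them. The *Gja1* window held 1 GATA match, whose first base lies at position -135 from the start. No match overlapped another. GC content was 56.4% for *Gja5* and 50.0% for *Gja1*.

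Of the 6 connexins, *Gja5* alone passed the test. *Gja5* rose in *Nrg1GOF*, and *Gja1*, *Gjc1*, *Gja3*, *Gja4* and *Gjd3* had an adjusted p above 0.05 (quasi-likelihood F test of edgeR, adjusted over 15580 tested genes). That is 1 of 6 genes, where 28.7% of all tested genes passed, 15.9% being higher and 12.8% lower in *Nrg1GOF*. The count for the connexins was thus not above the background. It became 2 of 6, with *Gja1* added, in 3 alternatives described below. The median log2 fold change of the 6 was 0.080, against -0.012 over all tested genes.

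*Gja5* (ENSMUSG00000057123, GRCm38 chromosome 3, 96904693 to 97077416, plus strand) was at 180, 177, 151 and 189 CPM in *Nrg1GOF* libraries 1 to 4. In WT libraries 1 to 4 it was at 125, 117, 128 and 118 CPM. The groups did not overlap, and within *Nrg1GOF* library 3 was the lowest of its group. The group values were 174 ± 16.4 CPM and 122 ± 5.19 CPM (SD, n = 4 each). The log2 fold change was 0.51 (SE 0.073, 95% interval 0.35 to 0.67, edgeR adjusted p = 0.000725), a 1.43-fold rise. Over 23 alternative fits the log2 fold change lay between 0.48 and 0.64 and the adjusted p did not exceed 0.0118. With WT libraries 1 and 2 as the controls *Gja5* changed by 0.52 (adjusted p = 0.00638), and with WT libraries 3 and 4 by 0.51 (adjusted p = 0.00525). In size the change of *Gja5* was ordinary, larger in absolute value than that of 81.5% of tested genes and close to the median of 0.46 among genes that passed the test.

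The annotated span of *Gja5* overlaps genes on the opposite strand, and the strand setting of the counting is not given in the sources used here. The antisense RNA genes *4930573H18Rik* and *9230114J08Rik* had at most 1 and 0 counts in a library. *Gpr89*, which overlaps the far upstream end of the gene, had 204 to 606 counts. The *Gja5* values themselves were 1510 to 3958 expected counts per library and were not whole, so some of the reads were shared with other sequences.

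*Gja1* (ENSMUSG00000050953, chromosome 10, 56377330 to 56402513, plus strand) was the most abundant connexin. In *Nrg1GOF* libraries 1 to 4 it stood at 684, 653, 590 and 748 CPM. In WT libraries 1 to 4 it was 597, 574, 624 and 606 CPM. The groups overlapped through *Nrg1GOF* library 3, which lay below 3 of the WT libraries, whereas the other 3 *Nrg1GOF* libraries lay above all of WT. The group values were 669 ± 65.6 CPM and 600 ± 20.8 CPM (SD, n = 4 each). The log2 fold change was 0.15 (SE 0.073, 95% interval -0.0073 to 0.32, edgeR adjusted p = 0.144).

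The call of *Gja1* depended on this library and on the scaling. Without *Nrg1GOF* replicate 3 its log2 fold change was 0.22 (edgeR adjusted p = 0.0234). With libraries scaled by their total alone it was 0.20 (adjusted p = 0.0464), and with a covariate of atrial genes 0.31 (adjusted p = 0.0451). In the 20 other fits, where it ranged from 0.11 to 0.19, it did not pass, and with WT libraries 1 and 2 as the controls it was 0.19 and with WT libraries 3 and 4 it was 0.13. The interval leaves room for a rise of up to 0.32 on the log2 scale but not for one of the size fitted for *Gja5*.

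**Figure D1:**
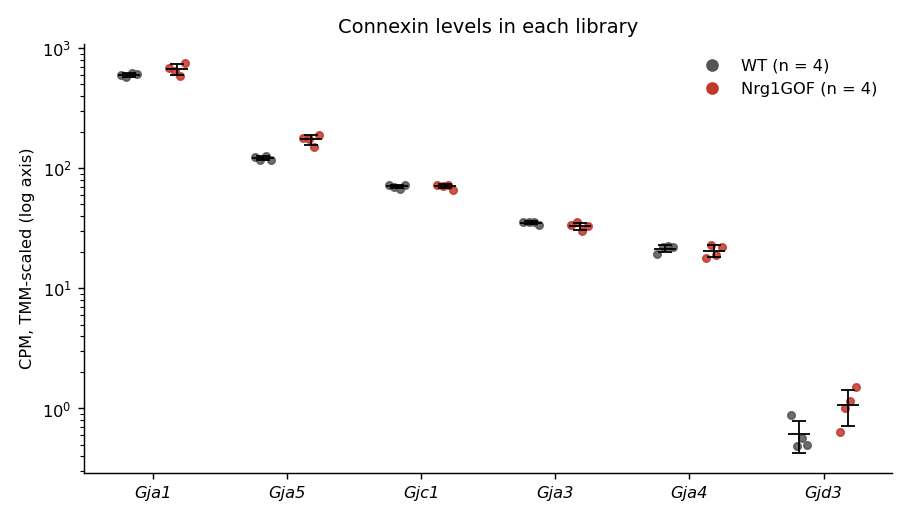
Level of each connexin in CPM (TMM-scaled, log axis) in the 4 WT libraries (grey) and the 4 Nrg1GOF libraries (red), each dot a library, with the mean and SD in black. *Gja5* is the gene whose groups separate, at 117 to 128 CPM in WT and 151 to 189 CPM in Nrg1GOF, while *Gjd3* lies near 1 CPM.

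The responses of *Gja5* and *Gja1* were then compared within each library, where a ratio needs no scaling for depth or composition. For every 100 counts of *Gja1*, *Nrg1GOF* libraries 1 to 4 held 26.3, 27.1, 25.5 and 25.3 counts of *Gja5*. WT libraries 1 to 4 held 20.8, 20.4, 20.5 and 19.5. The groups did not overlap, and *Nrg1GOF* library 3, low for both genes, was within its group in the ratio. The log2 ratio of *Gja5* to *Gja1* was higher in *Nrg1GOF* by 0.36 (SE 0.031), a 1.28-fold difference. The exact two-sided permutation test gave p = 0.0286, which is the smallest value that 4 against 4 libraries allow. Leaving out 1 library at a time gave 0.34 to 0.37. Against WT libraries 1 and 2 alone the difference was 0.34, and against WT libraries 3 and 4 alone 0.38. The balance of these transcripts therefore moved towards *Gja5* by more than the spread between libraries.

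**Figure D2:**
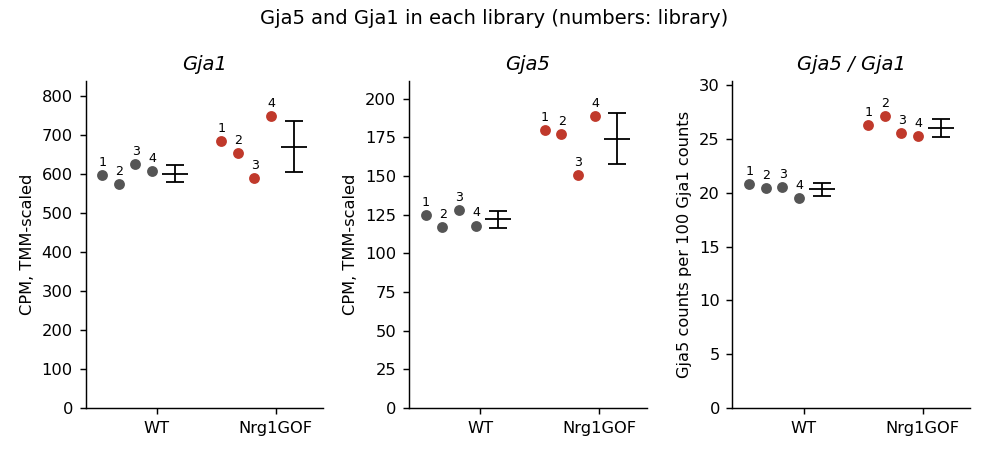
Levels of *Gja1* and *Gja5* in CPM and the counts of *Gja5* per 100 counts of *Gja1*, by library, with the library number above each dot and the mean and SD in black (n = 4 per group, axes from 0). *Nrg1GOF* library 3 is low for both genes, and the ratio separates the groups at 19.5 to 20.8 in WT and 25.3 to 27.1 in Nrg1GOF.

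*Gjc1* (chromosome 11, 102799579 to 102819700), the connexin of slow conduction, showed the smallest fitted change. *Nrg1GOF* libraries 1 to 4 had 72.8, 71.4, 72.9 and 66.6 CPM. The WT libraries, in the same order, had 72.6, 69.9, 67.7 and 73.0 CPM. The groups overlapped throughout. The log2 fold change was 0.0047 (SE 0.051, 95% interval -0.11 to 0.12, edgeR adjusted p = 0.960). *Gja3* (chromosome 14, 57034460 to 57058100) was at 30.3 to 35.7 CPM in *Nrg1GOF* and 34.1 to 36.0 CPM in WT, with a log2 fold change of -0.094 (SE 0.061, 95% interval -0.23 to 0.042, edgeR adjusted p = 0.287). *Gja3* was at -0.045 without *Nrg1GOF* library 3, and at -0.12 and -0.067 against WT libraries 1 and 2 and WT libraries 3 and 4. *Gjc1* was at -0.0062 and 0.022 against these pairs.

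*Gja4* (chromosome 4, 127311421 to 127314039), which shares arterial endothelium with *Gja5*, was at 17.9, 22.8, 19.1 and 22.3 CPM in *Nrg1GOF* libraries 1 to 4. In WT libraries 1 to 4 it was at 19.4, 22.0, 22.5 and 21.9 CPM. The ranges overlapped, and the log2 fold change was -0.071 (SE 0.094, 95% interval -0.28 to 0.14, edgeR adjusted p = 0.622). Leaving out 1 library gave values from -0.13 (without *Nrg1GOF* library 2) to -0.0096 (without *Nrg1GOF* library 1), and *Gja4* was at -0.020 and -0.12 against WT libraries 1 and 2 and WT libraries 3 and 4.

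*Gjd3* (chromosome 11, 98982180 to 98983016) was barely detected, with 12 to 27 counts in *Nrg1GOF* and 9 to 23 counts in WT libraries. *Nrg1GOF* libraries 1 to 4 had 0.64, 1.00, 1.15 and 1.5 CPM. The WT libraries, in the same order, had 0.88, 0.49, 0.57 and 0.49 CPM. *Nrg1GOF* libraries 2 to 4 were above all of WT and library 1 was not. The log2 fold change was 0.75 (SE 0.33, 95% interval 0.0066 to 1.49), with an unadjusted p of 0.0483 and an edgeR adjusted p of 0.124. Against WT libraries 1 and 2 *Gjd3* was at 0.56, and against WT libraries 3 and 4 at 0.96. At this depth the difference could not be shown.

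Counted over the 6 genes, 1 had groups that did not overlap, where 30.7% of all tested genes had none. Summed over the 6 genes, connexin transcripts reached 968 ± 81.0 CPM in *Nrg1GOF* and 850 ± 24.3 CPM in WT (SD, n = 4 each). The sum of *Nrg1GOF* library 3 (864 CPM) lay inside the WT range of 819 to 878 CPM and the other 3 lay above it.

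Levels of different genes were compared per kilobase of merged exon length. In WT the order was *Gja1* (58.5 ± 2.03 CPM per kilobase), *Gja5* (21.2 ± 0.90), *Gjc1* (14.2 ± 0.50), *Gja4* (12.7 ± 0.83), *Gja3* (11.9 ± 0.29) and *Gjd3* (0.73 ± 0.22; SD, n = 4 each). *Gja4* and *Gja3* differed by less than the SD of *Gja4*, so their order is not resolved. *Nrg1GOF* had the same order, with *Gja5* at 30.3 ± 2.85 and *Gja1* at 65.2 ± 6.39 CPM per kilobase (SD, n = 4 each). Per length, *Gja5* made up 17.8 ± 0.47% of the 6 connexins in WT and 22.5 ± 0.64% in *Nrg1GOF* (SD, n = 4 each), and the libraries did not overlap. The share of *Gja1* was 49.1 ± 0.63% in WT and 48.5 ± 1.53% in *Nrg1GOF* (SD, n = 4 each). The share of *Gja3* was 9.63% to 10.4% in WT libraries and 8.33 ± 0.51% in *Nrg1GOF*, and that of *Gjc1* was 11.9 ± 0.57% in WT and 10.6 ± 1.16% in *Nrg1GOF* (SD, n = 4 each). Shares depend on the length used, since the annotated exons of *Gja1* merge to 10257 bases and its longest transcript has 3889. With the longest transcript *Gja1* made up 65.8% in WT and *Gja5* 14.2%, against 64.7% and 17.9% in *Nrg1GOF*.

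**Figure D3:**
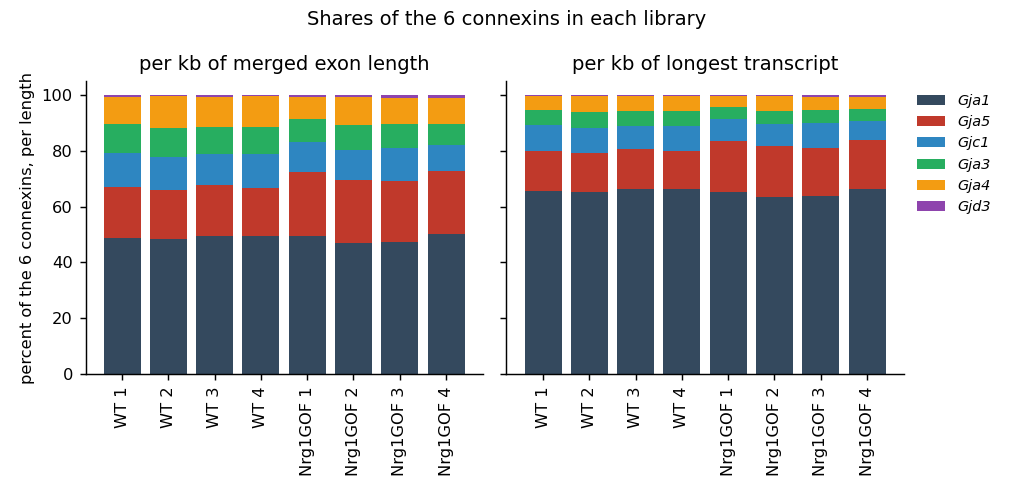
Share of each of the 6 connexins in their sum, per kilobase of merged exon length (left) and of the longest transcript (right), as stacked bars from 0 to 100% for each library. On the left the *Gja5* share is 17.2% to 18.2% in the 4 WT libraries and 21.6% to 23.1% in the 4 Nrg1GOF libraries, and on the right it is smaller in both groups.

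Other connexins were close to silent in these ventricles. Among them 13 genes did not reach the filter on low counts, and *Gjb6* had no count in any library. The highest total among the 13, over all 8 libraries, was 24.7 counts (*Gjc3*). A count of 0 allows a level of up to 0.112 to 0.373 CPM of the unscaled total, depending on the library.

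Pannexins form channels in a single membrane and do not usually dock into gap junctions. *Panx1* rose in *Nrg1GOF*, to 15.2 ± 1.66 CPM against 9.32 ± 1.20 CPM in WT (SD, n = 4 each). Its log2 fold change was 0.71 (SE 0.12, edgeR adjusted p = 0.00185). The groups did not overlap, with 10.3 CPM the highest WT value and 13.98 CPM the lowest of *Nrg1GOF*. *Panx2* was at 3.97 to 6.38 CPM in WT and 3.81 to 6.16 CPM in *Nrg1GOF*, and its log2 fold change of -0.18 (SE 0.21) did not pass (edgeR adjusted p = 0.577). Against WT libraries 1 and 2 *Panx2* was at -0.24, and against WT libraries 3 and 4 at -0.11. Leaving out 1 library gave values from -0.36 (without *Nrg1GOF* library 3) to -0.072 (without WT library 1). *Panx3* had 2 counts in all 8 libraries together and was not tested. *Panx1* passed against either WT pair, at 0.56 for libraries 1 and 2 and 0.87 for libraries 3 and 4, and fell short of the threshold with the covariate of atrial genes (0.50, adjusted p = 0.0815).

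Among 10 transcription factors known to act on connexin genes or on conduction tissue, 5 rose, 2 fell and 3 did not pass the test (median log2 fold change 0.36), where 15.9% of all tested genes were higher and 12.8% lower. *Irx3*, a homeobox factor of the ventricular conduction system, rose by a log2 fold change of 1.39 (SE 0.13, edgeR adjusted p = 7.31e-05). *Etv1*, an ETS factor needed for fast conduction, rose by 0.52 (SE 0.064) and *Tbx5*, an activator of *Gja5*, by 0.42 (SE 0.083). *Tbx3*, which represses *Gja5* and *Gja1* in slow-conducting tissue, rose as well, from 9.68 ± 2.26 to 19.2 ± 4.97 CPM (SD, n = 4 each; log2 fold change 1.01, SE 0.21). *Shox2*, a factor of the sinus node, rose by 1.88 (SE 0.35) from 1.69 ± 0.59 CPM to 6.03 ± 2.43 CPM (SD, n = 4 each). Both passed against either WT pair, *Tbx3* at 0.79 and 1.27 and *Shox2* at 1.51 and 2.37 for libraries 1 and 2 and libraries 3 and 4.

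*Tbx18* and *Hopx* fell by 0.33 (SE 0.079) and 0.35 (SE 0.086) on the log2 scale. *Tbx18* missed the threshold against WT libraries 1 and 2 (-0.25, adjusted p = 0.0935) and with the WT pairs summed (adjusted p = 0.0649). *Hopx* missed it against either WT pair (-0.36 and -0.33, adjusted p = 0.0527 and 0.0563) and with the pairs summed (adjusted p = 0.0871). *Nkx2-5* and *Gata4*, core cardiac factors, did not pass, at -0.028 (SE 0.12) and -0.051 (SE 0.050), nor did *Tbx2*, a repressor related to *Tbx3*, at 0.30 (SE 0.14, edgeR adjusted p = 0.147). *Tbx2* was at 0.18 without *Nrg1GOF* library 3, and at 0.44 and 0.17 against WT libraries 1 and 2 and WT libraries 3 and 4. With the covariate of atrial genes the values of *Tbx3* (0.34, SE 0.15), *Tbx5* (0.19, SE 0.084) and *Shox2* (0.67, SE 0.24) were smaller and did not pass (adjusted p = 0.183, 0.182 and 0.105). *Tbx18* did not pass at a value of -0.36 with a wider error (SE 0.13, adjusted p = 0.111), nor did *Hopx* at -0.26 (SE 0.12, adjusted p = 0.228). In that fit 2 of the 10 were called.

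**Figure D4:**
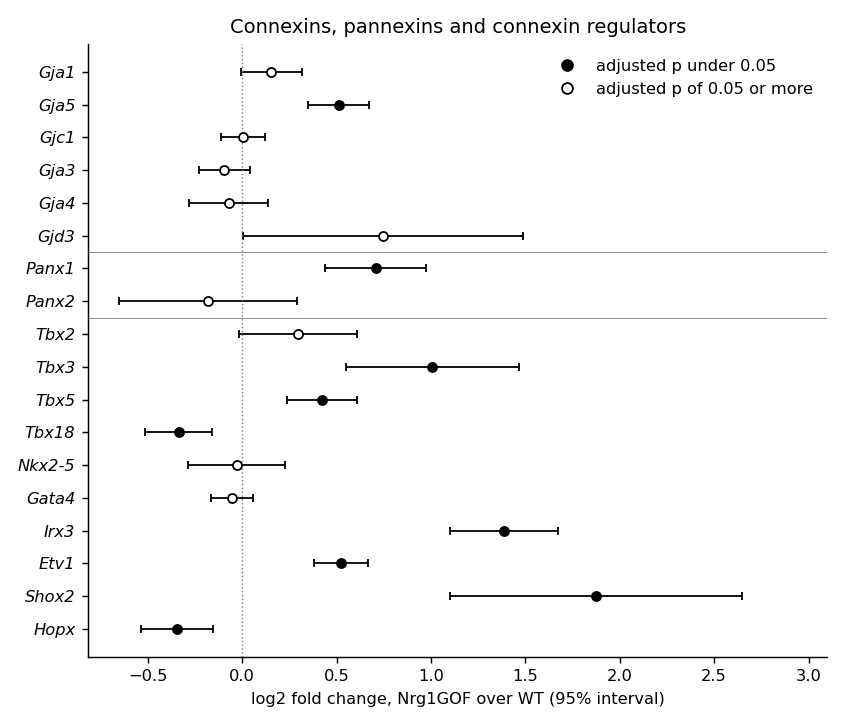
Log2 fold change of *Nrg1GOF* over WT with its 95% interval for the 6 connexins (top), 2 pannexins (middle) and 10 connexin regulators (bottom), filled where the edgeR adjusted p is under 0.05. *Gja5* at 0.51 is the filled connexin, and the interval of *Gjc1* runs from -0.11 to 0.12.

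Cx43 sits in the intercalated disc beside adherens junctions and desmosomes. Of 20 genes for disc proteins and connexin partners, 2 rose, 7 fell and 11 did not pass, where 28.7% of all tested genes passed, 15.9% higher and 12.8% lower. The median log2 fold change of the 20 was -0.011. The lowest was *Cdh2*, the cadherin of the disc, whose level was 486 ± 23.4 CPM in *Nrg1GOF* against 689 ± 10.9 CPM in WT (SD, n = 4 each; log2 fold change -0.51, SE 0.051, edgeR adjusted p = 0.000122). *Ccn3*, whose protein binds Cx43, had the highest value, 0.63 (SE 0.20, edgeR adjusted p = 0.0368). That call was lost on leaving out any 1 of *Nrg1GOF* libraries 1 to 4 or WT library 3 or 4 (0.49 to 0.67, adjusted p from 0.0547 to 0.0964). *Ccn3* was at 0.28 against WT libraries 1 and 2 (adjusted p = 0.105) and at 1.08 against WT libraries 3 and 4 (adjusted p = 0.000414). It did not pass with the WT pairs summed (adjusted p = 0.0788) or with the covariate of atrial genes (0.27, adjusted p = 0.550). When the WT pairs were summed, 5 genes of this list were called.

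In ventricle tissue, more cells of a type and more RNA per cell cannot be told apart, so the marker genes of the cell types that carry connexins are given beside *Gja5* and *Gja1*. No marker in these lists was at 0 in any library. Their counts stand against 28.7% of all tested genes passing, 15.9% higher and 12.8% lower. Of 12 working cardiomyocyte genes, 7 were lower and none higher, with sums of 41290 to 48860 CPM in *Nrg1GOF* and 52660 to 55420 CPM in WT. The extremes of that list were *Myh6* (0.51, SE 0.21) and *Ryr2* (-0.70, SE 0.26), neither of which passed, and both depended on the WT pair. *Myh6* was at 0.13 against WT libraries 1 and 2 and passed against WT libraries 3 and 4 (1.03) and without WT library 1 (0.67). *Ryr2* was at -0.085 against WT libraries 3 and 4 and passed against WT libraries 1 and 2 (-1.13), without WT library 3 or 4 (-0.86 in each), in the likelihood ratio test (adjusted p = 0.0326) and with no filter on low counts (adjusted p = 0.0451). At an unadjusted p under 0.05, 1 of the 12 was higher and 9 were lower. Of 7 conduction genes other than those above, 5 rose, led by *Cntn2* at 2.14 (SE 0.62, edgeR adjusted p = 0.0272), and their sums were 561 to 655 CPM in *Nrg1GOF* and 196 to 292 CPM in WT. *Slit2*, named after its value was seen, carried most of the sum in *Nrg1GOF*, and without it the sums were 156 to 235 CPM in *Nrg1GOF* and 93.9 to 160 CPM in WT and overlapped. *Cntn2* missed the threshold without *Nrg1GOF* library 1, 3 or 4 (2.12, 2.08 and 2.07, adjusted p from 0.0562 to 0.0612), with the WT pairs summed (adjusted p = 0.0800) and with the covariate of atrial genes (1.3, adjusted p = 0.318). *Cntn2* was at 1.26 against WT libraries 1 and 2 and at 4.46 against WT libraries 3 and 4, which had 4 counts each. *Cacna1g*, the lowest of the list, was at 0.28 (SE 0.31) and did not pass. It passed as higher against WT libraries 3 and 4 (0.93, adjusted p = 0.0286) and as lower with the covariate of atrial genes (-0.71, adjusted p = 0.0169).

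Of 9 atrial genes, 4 rose and 5 did not pass, with sums of 1778 to 1941 CPM in *Nrg1GOF* and 1132 to 1283 CPM in WT. Several of them, such as *Myl4* and *Myl7*, are also expressed by embryonic ventricular myocardium, and *Myl4* alone made up 1312 CPM of the sum in *Nrg1GOF* and 862 CPM in WT (means of 4 libraries). *Sln* had the highest value, 1.89 (SE 0.72, edgeR adjusted p = 0.0767), and *Kcnj5* the lowest, -0.084 (SE 0.075), and neither passed. *Sln* was at 1.13 against WT libraries 1 and 2, and it passed against WT libraries 3 and 4 (3.58), without *Nrg1GOF* library 4 (2.19), in limma-voom (2.70, adjusted p = 0.0498) and with no filter on low counts (adjusted p = 0.0454). With the mean log2 level of this list as a covariate, *Gja5* stayed higher in *Nrg1GOF* at 0.64 (edgeR adjusted p = 0.00426). That covariate ran from 5.198 to 5.919 in *Nrg1GOF* and from 4.535 to 5.321 in WT, so it moved with genotype. The part of atrial tissue in the *Gja5* difference was not tested.

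Of 10 endothelial genes, 3 rose and 1 fell, from *Emcn* at 0.67 (SE 0.076) to *Cldn5* at -0.83 (SE 0.085), both past the test. Their sums were 1251 to 1304 CPM in *Nrg1GOF* and 1168 to 1229 CPM in WT. Of 8 arterial endothelial genes, 4 rose and none fell, led by *Unc5b* at 0.76 (SE 0.094, edgeR adjusted p = 0.000348), while *Sox17* was lowest at -0.45 (SE 0.17) and did not pass. *Sox17* was at -0.24 against WT libraries 1 and 2 (adjusted p = 0.421). It did pass without *Nrg1GOF* library 3 (-0.59) or WT library 2 (-0.54), against WT libraries 3 and 4 (-0.62), and in DESeq2 and the likelihood ratio test (adjusted p = 0.0397 and 0.0479). The arterial sums were 432 to 528 CPM in *Nrg1GOF* and 336 to 368 CPM in WT, of which *Unc5b* alone made up 266 ± 29.7 and 157 ± 15.6 CPM (SD, n = 4 each).

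Of 11 epicardial and fibroblast genes, 10 rose, led by *Tcf21* at 1.26 (SE 0.082, edgeR adjusted p = 1.08e-05), and *Aldh1a2* at -0.20 (SE 0.15) did not pass. Their sums were 7281 to 9265 CPM in *Nrg1GOF* and 3916 to 5341 CPM in WT. *Gja1* is also expressed by fibroblasts. Of 9 mural cell genes, 3 rose and 3 fell, from *Tagln* at 1.20 (SE 0.22) to *Acta2* at -0.70 (SE 0.071), both past the test. Their sums were 1338 to 1424 CPM in *Nrg1GOF* and 1639 to 1905 CPM in WT. *Acta2* alone made up 666 and 1084 CPM of them (means of 4 libraries). *Tagln* was at 0.79 and 1.77 against WT libraries 1 and 2 and WT libraries 3 and 4, passing in both, and did not pass with the covariate of atrial genes (0.69, adjusted p = 0.0841). None of 8 red blood cell genes passed in the main edgeR fit, DESeq2 or limma-voom, and 0 had an unadjusted p under 0.05 in the main fit. Against WT libraries 3 and 4 alone *Hba-a1* passed as higher (0.62, edgeR adjusted p = 0.0454). These genes differed between the WT pairs, and *Hba-a2* fell by 1.00 on the log2 scale against WT libraries 1 and 2 and rose by 0.64 against WT libraries 3 and 4.

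Ratios within a library place both connexins against these lists. Relative to the summed working cardiomyocyte genes, *Gja5* was higher in *Nrg1GOF* by 0.77 (SE 0.052) on the log2 scale and *Gja1* by 0.41 (SE 0.047), with no overlap between the groups in either. Relative to the summed endothelial genes, *Gja5* was higher by 0.41 (SE 0.062) without overlap and *Gja1* by 0.049 (SE 0.059) with overlap. Relative to the arterial genes, the difference for *Gja5* was 0.080 (SE 0.14), and relative to the atrial genes -0.13 (SE 0.086), and in both the groups overlapped. For *Gja1* these differences were -0.28 (SE 0.14), with overlap, and -0.49 (SE 0.094), with none. The atrial sum is mostly *Myl4* and the arterial sum largely *Unc5b*. The epicardial and fibroblast sum is mostly *Col1a1*, *Col1a2*, *Col3a1* and *Postn*. In the cardiomyocyte sum the largest part is *Myh7*, at 12616 CPM in *Nrg1GOF* and 17606 CPM in WT (means of 4 libraries). *Actc1*, also abundant there, had a log2 fold change of 0.0012 (SE 0.064). *Gja4* relative to the arterial genes was different by -0.50 (SE 0.14) with no overlap. Relative to epicardial and fibroblast genes *Gja5* differed by -0.32 (SE 0.20), with overlap, and *Gja1* by -0.68 (SE 0.21), with none. Relative to mural cell genes *Gja5* was higher by 0.90 (SE 0.091) and *Gja1* by 0.54 (SE 0.092), with no overlap in either. The part of each cell type in the *Gja5* difference was not tested.

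**Figure D5:**
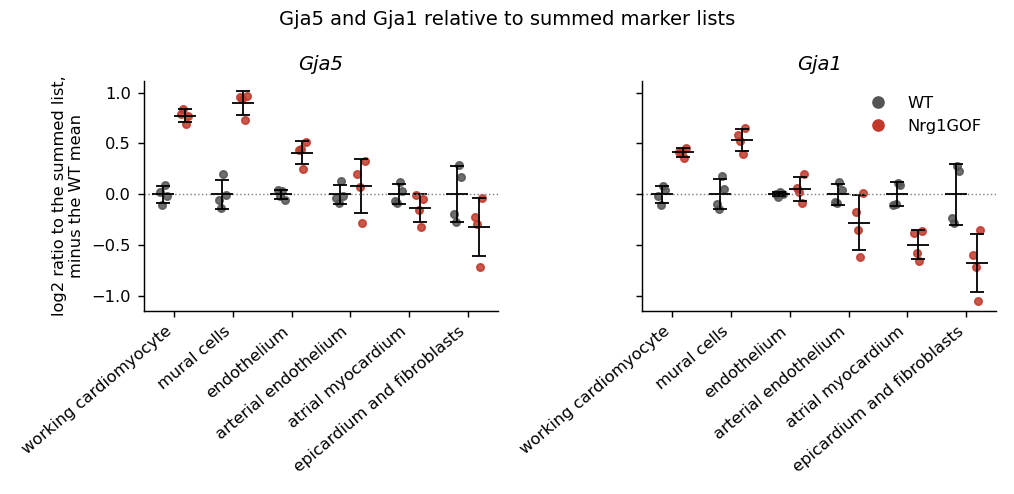
Log2 ratio of *Gja5* (left) and *Gja1* (right) to the summed counts of 6 marker lists, shown as the difference from the WT mean, by library (WT grey, Nrg1GOF red), with the mean and SD in black. For *Gja5* the Nrg1GOF libraries lie above WT against cardiomyocyte, mural and endothelial genes and overlap WT against arterial, atrial and epicardial or fibroblast genes.

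Genes whose profile over the 8 libraries was most like that of *Gja5* and *Gja1* were taken from 10540 genes with an average log2 CPM of at least 3, by the root mean square difference of centred log2 CPM. For *Gja5* they were *Tm4sf1* (0.046), *Mpped2* (0.052) and *Mfge8* (0.054), with log2 fold changes of 0.50 (SE 0.073), 0.51 (SE 0.079) and 0.50 (SE 0.058). For *Gja1* they included *Pdlim1* (0.030) and *Cyb5r3* (0.044), with log2 fold changes of 0.16 (SE 0.066) and 0.11 (SE 0.056). Likeness was measured over both groups, so folds near those of *Gja5* and *Gja1* follow from the choice.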

How the data were processed

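RNA-seq libraries of 4 *Nrg1GOF* and 4 WT ventricle samples were analysed, grouped by sample title. Expected counts from RSEM, 1 value per gene and library, were deposited by the authors and are not scaled for depth or length. The submitters' processing notes name cutadapt, RSEM 1.3.1 and GRCm38, and the file is named for Ensembl release 91. The aligner and strand setting are not given in the sources used here.

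Expected counts were rounded. Genes were filtered with filterByExpr of edgeR (4.0.16, R 4.3.3), libraries were scaled by TMM (trimmed mean of M-values), and the groups were compared by the quasi-likelihood F test with genotype as the sole term and Benjamini-Hochberg adjustment over all 15580 tested genes. The threshold was an adjusted p of 0.05, and genes under it are said to pass or to be called. Intervals at 95% use the t quantile of the fit and SE is the absolute log2 fold change over the square root of F. The *Gja5* to *Gja1* ratio used unrounded counts and an exact permutation test over 70 assignments.

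Merged exon lengths came from GENCODE M21 (GRCm38), over all annotated transcripts of a gene, and promoters from RefSeq (GRCm38.p6). Promoter windows were found for 4 of the 6 members. Symbols were matched for 53274 of 53465 genes. Named genes were the 6 connexins, *Nrg1*, all tested genes of the connexin, pannexin and regulator lists, the highest and lowest of each other list, and the 3 genes nearest to *Gja5* and to *Gja1*, a few of which are not reported here. Members and lists were chosen with earlier results of these data known, and ratios to marker lists after the levels were seen. The floor of detection was 3 counts, which covers counting error only. The labels do not state whether replicates are separate litters, so p-values measure the spread between these samples. Alternatives were the likelihood ratio test, DESeq2 (1.42.0), limma-voom (limma 3.58.1), other scalings and filters, unrounded counts, the replicate number as a block, thinning, an atrial covariate, WT pairs alone or summed, leaving out each library, and lengths of the longest transcript. No library was left out of the main comparison.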

Additional observations from a re-analysis of the deposited data

Results flagged for a closer look

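Of 92 groups of 4 values examined for a library far from the rest of its group, 3 held one, where chance at 1 in 20 would give 4.6. None was a connexin or the ratio of *Gja5* to *Gja1*. The total of *Nrg1GOF* library 4 (8038641 counts) was the smallest of its group, and the gap to the next was 0.864 of the range over the group. *Kcnj5* was at 75.6 CPM in the same library against 88.8 to 90.1 CPM in the others (gap 0.906). *Aldh1a2* was at 14.2 CPM in *Nrg1GOF* library 3 against 19.2 to 19.8 CPM (gap 0.898).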

How the results depend on the processing

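Results were recomputed 1369 times with 1 choice changed. In 1249 cases direction and side of the threshold, or size where no test applied, held. Of the rest, 26 weakened, 30 strengthened, 24 reversed and 40 moved. *Gja5* kept its call in all 23 alternative fits, as did *Nrg1* (3.82 to 4.04), and the *Gja5* to *Gja1* ratio kept its sign and, where a test could pass, its side of the threshold. The number of connexins called was 2 with scaling by library total, 2 with the atrial covariate and 1 to 2 across fits without 1 library, *Gja1* being the addition each time (0.20, 0.31 and, across fits without 1 library, 0.11 to 0.22). The atrial covariate is itself higher in *Nrg1GOF* and so overlaps the contrast, and with it 32 genes were called over all lists in place of 58. Otherwise the cause was not tested.

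*Gjc1*, near 0, reversed to -0.0062 against WT libraries 1 and 2, to -0.017 after thinning and to -0.072 with the atrial covariate, and ranged from -0.018 to 0.041 across fits without 1 library. *Gja4* reversed to 0.058 with that covariate, as did *Nkx2-5* (0.13), *Myh6* (-0.016), *Sln* (-0.74) and *Cacna1g* (-0.71). *Nkx2-5* was 0.013 with scaling by total and -0.14 to 0.063 without 1 library. Against WT libraries 1 and 2 *Cacna1g* was -0.16. Against WT libraries 3 and 4 *Kcnj5* was 0.020, *Aldh1a2* 0.030, *Hba-a1* 0.62 and *Hba-a2* 0.64. *Hba-a1* was 0.0053 with limma-voom and -0.29 to 0.17 without 1 library.

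With the longest transcript, shares in *Nrg1GOF* and WT were 64.7% and 65.8% for *Gja1*, 17.9% and 14.2% for *Gja5*, 7.88% and 8.85% for *Gjc1*, 4.52% and 5.45% for *Gja3*, 4.59% and 5.43% for *Gja4*, and 0.48% and 0.31% for *Gjd3*.

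Replicate numbers gave correlations of deviations of 0.129, 0.0492, 0.199 and 0.0668. Their mean was 0.111, against -0.0373 for different numbers, and 0.199 was the highest of all 16 values. The labels do not say that the numbers pair the samples, so the main fit held no block. With the replicate block 4524 genes were called against 4467, *Gja5* was 0.51 (adjusted p = 0.00261) and *Gja1* 0.15 (adjusted p = 0.160). *Tbx2* (adjusted p = 0.0431), *Ryr2* (-0.63, adjusted p = 0.0214) and *Sox17* (adjusted p = 0.0412) passed as well, and the ratio difference was 0.36 (4 sign-flipped pairs cannot give a p under 0.125). Scaling by library total moved higher calls from 2474 of 4467 to 2874 of 4395. Depth limits *Gjd3* most, where 3 counts stand for 0.373 CPM in *Nrg1GOF* library 4.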

Other observations

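*Gja5* and *Gja1* were both lowest in *Nrg1GOF* library 3 (151 and 590 CPM) and highest in library 4 (189 and 748 CPM). The epicardial and fibroblast sum had the opposite extremes in these libraries, 9265 CPM in library 3 and 7281 CPM in library 4, and so had *Tbx3* (25.5 and 13.6 CPM) and *Shox2* (8.55 and 2.75 CPM). *Tbx5* (74.1 and 55.6 CPM) and *Tbx18* (52.0 and 40.4 CPM) had these opposite extremes too, and *Etv1* was highest in library 3 (81.6 CPM). *Irx3* had the same extremes as the connexins, with 68.4 CPM in library 3 and 101 CPM in library 4. So had *Hopx* (143 and 192 CPM) and the working cardiomyocyte sum (41290 and 48860 CPM). Library 4 was also the smallest library, with 8038641 counts. These are values of single libraries within a group and were not tested.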
